A study of Mus musculus with 5 samples.

Results

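The replication-dependent histone genes encode the core histones H2A, H2B, H3 and H4 and the linker histone H1 that package newly made DNA. They were taken as the rows of the mRNA-seq table whose symbol begins with Hist1h, Hist2h, Hist3h or Hist4h and whose gene is protein-coding in GENCODE M21, which left 62 of the 18349 genes listed and of the 13457 listed protein-coding genes. Another 3 histone rows were pseudogenes and were not counted. Of 67 annotated protein-coding genes with such symbols, 5 were not listed (Hist1h2aa, Hist1h2ba, Hist1h2bq, Hist1h2br and Hist2h3c1), and these had 0 peaks each. On the mouse build mm10 the members lay on chromosome 13 (50 genes), chromosome 3 (9), chromosome 11 (2) and chromosome 6 (1).

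The study mapped where the cytoplasmic poly(A) binding protein PABPC1 touches RNA in MEL cells, a mouse erythroleukemia line, by crosslinking and immunoprecipitation sequencing (CLIP-seq) of 3 biological replicates, and measured mRNA in 2 further samples of the same cells. For CLIP-seq, cells received 400 mJ/cm2 of UV light 3 times, the lysate was digested with DNase for 15 min and RNase for 10 min, and PABPC1 was precipitated with an antibody. For mRNA-seq, poly(A)+ RNA was retained on oligo-dT beads, so the mRNA level below counts RNA that these beads retained and total histone mRNA was not measured. The authors' files hold 1 pooled list of 90337 peaks, 1 pooled list of 11907 deletion sites and 1 pooled mRNA level a gene, so no value has a replicate error and no test between samples was possible.

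Most replication-dependent histone mRNAs do not end in a poly(A) tail. Their 3′ end is formed by a cut a few bases after a conserved stem-loop, which is bound by the stem-loop binding protein SLBP and stands in for the tail in translation and in decay at the end of S phase. Some of these genes can also make polyadenylated transcripts from signals farther downstream.

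The stem-loop is the feature these genes share, and 38 of the 62 members matched its consensus after the stop codon. Among all 13457 listed protein-coding genes 40 did, 0.297%, the others being Klf7 and Syncrip. The consensus (16 bases, searched on the sense strand of the longest coding transcript) began 21 to 58 nt after the stop codon in the members, with a median of 31.5 nt. Of the members with at least 60 nt of annotated 3′ UTR, 36 of 45 held it, and 11 members had no annotated 3′ UTR in which to look. The stem bases were the same in the H1, H2A, H2B and H3 members, and the H4 members had others. A representative of each of the 7 sequences found is given here with its flanks because the peak ends described below fall in these bases; capitals mark the stem-loop.
Hist1h2ab, the form in 24 members of the H1, H2A, H2B and H3 classes: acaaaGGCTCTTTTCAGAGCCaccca
Hist1h4d, the form in 7 H4 genes: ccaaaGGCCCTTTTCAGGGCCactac
Hist2h4, also in Hist1h4i: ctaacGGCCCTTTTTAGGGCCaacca
Hist1h4b, also in Hist1h4j: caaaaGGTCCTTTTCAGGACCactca
Hist1h4a: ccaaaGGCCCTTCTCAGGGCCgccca
Hist1h3g: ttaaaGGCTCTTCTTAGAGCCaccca
Hist2h2ac: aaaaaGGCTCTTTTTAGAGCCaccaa

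With 1 mismatch allowed, 6 more members matched (Hist1h1t, Hist1h2bb, Hist1h2bk, Hist1h3c, Hist1h3e and Hist1h3f). All 6 carried the same sequence, given here with the mismatched base in capitals because such a form also lay under peaks.
Hist1h3c: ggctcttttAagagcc

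Histone mRNA levels were low in the oligo-dT retained RNA. Levels are RPKM, reads scaled by gene length and library size, which allows genes to be compared. The member RPKM ran from 0.0491 to 134.9 with a median of 5.67, beside a median of 11.5 over listed protein-coding genes. The members' RPKM summed to 677, which is 0.128% of that of protein-coding genes. There were 54 members at RPKM 1 or more, 18 at 10 or more and 8 under 1. In bulk RNA, fewer cells that hold an mRNA and less of it per cell cannot be told apart. In the 18 members whose versioned identifier matched the annotation, the level rested on 1 to 1898 whole reads, with a median of 67.

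The classes overlapped in mRNA level. The 6 H1 genes, whose products bind linker DNA between nucleosomes, had a median RPKM of 15.6 (0.780 to 33.6). The 17 H2A genes had a median of 2.05 but held both ends of the range, with Hist1h2af at 134.9 and Hist2h2aa1 at 0.0491. The 15 H2B genes had a median of 6.01 (1.45 to 32.5), the 11 H3 genes 4.89 (0.251 to 18.0) and the 13 H4 genes 6.36 (0.140 to 29.5). Every class spanned at least the range from below 2 to above 15, so the class medians differ by less than the spread among their genes.

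PABPC1 peaks were found on most of these genes. A peak was given to a gene when its midpoint lay in the gene's span on its strand, and the score the authors gave it was taken to be its height in tags, the sequenced fragments at its summit. In all, 91 peaks lay in 54 of the 62 members, beside 83.5% of all listed protein-coding genes with a peak. At RPKM 1 or more, 53 of 54 members held a peak (98.1%, 95% exact Clopper-Pearson interval 90.1 to 100, which covers counting of genes only), beside 97.4% of all 10248 protein-coding genes at that level. The share of members was therefore near the background. It stayed so by level: 19 of 20 members at RPKM 1 to 5 against 87.7% of genes, 24 of 24 at 5 to 20 against 98.6%, 9 of 9 at 20 to 100 against 99.8%, and the single member above 100 against 99.9%. Among genes of at most 1000 exonic nt, 40 of 41 members held a peak, against 92.6%. Under RPKM 1, 1 of 8 members held a peak, against 39.1%. No peak lay on the opposite strand within a member's span.

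The heights on histone genes were modest. The member peaks had 3 to 254 tags and a median of 31, against 9 for all peaks, and the 4060 tags in them made up 0.119% of the height of the list. The transcripts had a median length of 536.5 nt, and 27 members held 1 peak, 22 held 2 and 5 held more. The median summed height at RPKM 1 or more was 52 tags for members, 181 for all protein-coding genes and 155 for other genes of at most 1000 exonic nt. The ratio of height to level was put on a log2 scale with 1 added to both, so ratios of genes with low values are understated. Its median was 2.74 for members, 2.87 for all protein-coding genes and 1.57 for the other short genes. By level, members stood at 3.52 against 2.91 for all genes at RPKM 1 to 5, at 2.72 against 3.39 at 5 to 20, and at 1.26 against 2.81 at 20 to 100. The members' median was thus above that of all genes in the lowest of these bands and below it in the others. RPKM is scaled by length and summed height is not, so this ratio depends on transcript length. Median height per 1000 exonic nt was 81.6 for members and 52.3 for all genes at RPKM 1 or more. By level it was 38.9 against 7.96 at RPKM 1 to 5, 106.4 against 33.5 at 5 to 20, and 86.5 against 90.6 at 20 to 100. Among genes of at most 1000 exonic nt it was 95.2 for members and 199.3 for the others.

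Height followed mRNA level less closely in these genes than elsewhere. Over the 54 members Spearman's rho between RPKM and summed height was 0.374 and Pearson's r on log2 values was 0.393. Over the 472 other short genes they were 0.665 and 0.670. These values describe genes of the same pooled libraries, which are not independent replicates, and the difference was not tested.

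**Figure D1:**
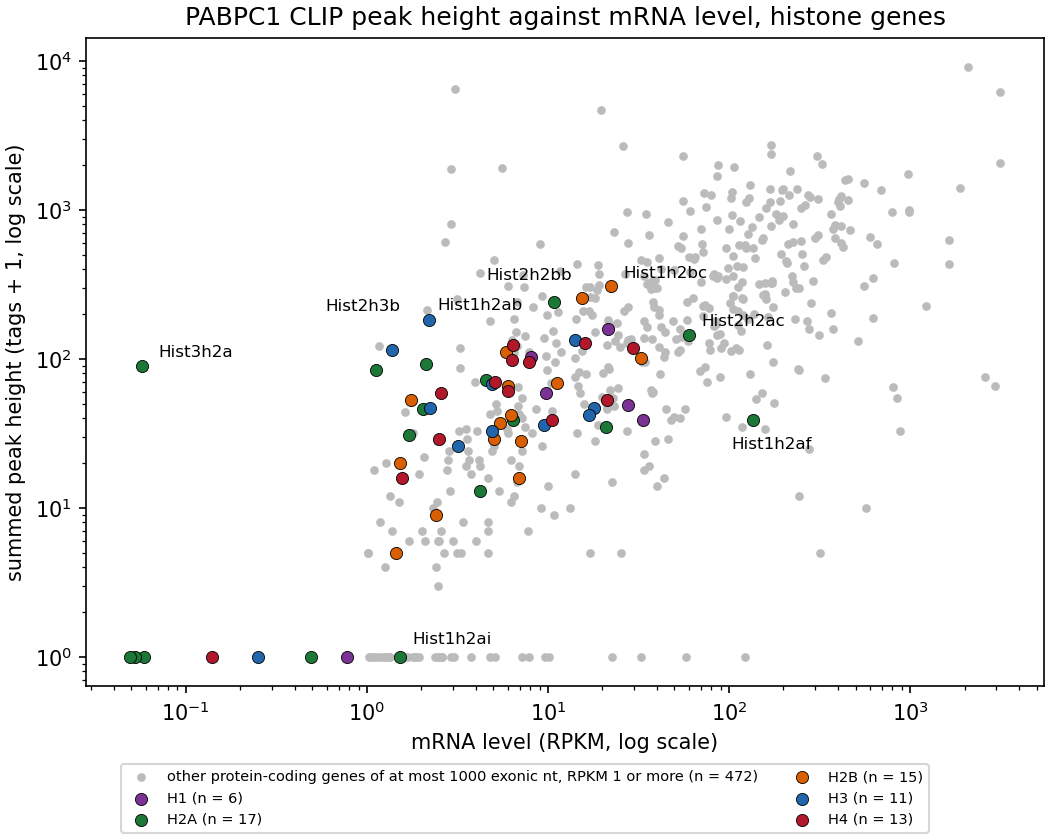
Each point is a gene, with mRNA level (RPKM, log scale) on the x axis and summed PABPC1 peak height (tags + 1, log scale) on the y axis; coloured points are the 62 histone genes by class and grey points are 472 other short protein-coding genes. Hist1h2af lies far right at RPKM 134.9 with 38 tags, Hist1h2bc is the highest histone gene at 307 tags, and the 8 histone genes without a peak lie on the bottom line.

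Single members illustrate the range of these values. Those at RPKM 10 or more were picked for the smallest and largest ratios, so they do not measure the coupling. Hist1h2af, an H2A gene (chromosome 13, 23533906 to 23534304, plus strand), had the highest level of the family at RPKM 134.9 and a single peak of 38 tags, a log2 ratio of -1.80. Hist1h1e, a linker histone gene, had RPKM 33.6 and also 38 tags (ratio 0.17), and the H2A gene Hist1h2ak had RPKM 21.1 and 34 tags (0.67). These were the smallest ratios among members at RPKM 10 or more. The largest were those of the H2A gene Hist1h2ab at 4.36 (RPKM 10.8, 240 tags), the H2B gene Hist2h2bb at 3.95 (RPKM 15.5, 254 tags) and the H2B gene Hist1h2bc at 3.73 (RPKM 22.2, 307 tags). Hist1h2af, Hist1h2ak and Hist1h2ab overlap a gene on the opposite strand (Gm44297, Gm44454 and Gm44484). Hist1h1e overlaps Gm11398 and Hist1h2be on the same strand. The sources used here do not say whether the RPKM used strand, so the levels and ratios of these genes are uncertain. The table's identifier for Hist2h2bb belongs in GENCODE M21 to a long non-coding gene, Gm42743, that overlaps it on the same strand. The level of Hist2h2bb is therefore uncertain, and its tags cannot be told apart from those of Gm42743. Hist3h2a had RPKM 0.057, for which no whole read count was recovered, and yet 6 peaks that summed to 89 tags. It lies inside Trim17 on the same strand, and tags of the 2 genes cannot be told apart there.

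Of the 10 members with the greatest summed height, each histone class was represented. After the H2B genes Hist1h2bc and Hist2h2bb and the H2A gene Hist1h2ab came the H3 gene Hist2h3b with 183 tags at RPKM 2.21 and the H1 gene Hist1h1c with 159 at 21.4. The H2A gene Hist2h2ac had 145 at 60.1, and the H3 gene Hist1h3c 134 at 14.0. The H4 genes Hist2h4 (127 tags, RPKM 16.0), Hist1h4a (123, RPKM 6.40) and Hist1h4d (118, RPKM 29.5) completed them. By class the median summed height was 53 tags for H1, 38 for H2A, 41 for H2B, 46 for H3 and 60 for H4. All 15 H2B genes held a peak, as did 5 of 6 H1, 12 of 17 H2A, 10 of 11 H3 and 12 of 13 H4 genes.

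The members without a peak were at low level. The H2A gene Hist1h2ai was the most abundant of them at RPKM 1.53, and Hist1h1t, the testis H1, followed at 0.780. The H2A gene Hist1h2ap stood at 0.492, the H3 gene Hist2h3c2 at 0.251 and the H4 gene Hist1h4m at 0.140. The other 3 were the H2A genes Hist1h2ao, Hist2h2aa1 and Hist2h2aa2. Each of the 8 lay at or below RPKM 1.53, where 39.1% of protein-coding genes (RPKM under 1) or 87.7% (RPKM 1 to 5) held a peak.

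Along the mRNA most of the histone peak height lay in coding sequence. By midpoint, 57.9% of the members' height fell in coding sequence (CDS), 30.2% in 3′ UTRs, 10.6% in 5′ UTRs and 1.33% in introns. For the other protein-coding genes the shares were 19.7%, 74.4%, 1.38% and 4.47%, and for other short genes 29.9%, 59.4%, 5.21% and 5.48%. By height, 3′ UTRs thus led in both comparison groups and CDS led in histone genes. By number of peaks the members were close to the other short genes: 54.9% of 91 peaks lay in CDS, 33.0% in 3′ UTRs and 9.89% in 5′ UTRs, beside 48.4%, 29.95% and 9.75% of 1272 peaks. The pattern by height therefore did not hold by count against short genes. The annotated transcripts of the members were 43.3% CDS, 48.7% 3′ UTR and 8.0% 5′ UTR by length. Members with no annotated 3′ UTR, such as Hist2h2bb with its 254 tags, add to the CDS share, since a peak there cannot be placed in a 3′ UTR. In the 45 members with at least 60 nt of 3′ UTR, 47.5% of the height lay in CDS and 37.2% in 3′ UTRs, beside 35.8% and 55.6% of the length. That length includes annotated sequence past the stem-loop, 4884 nt of it in Hist1h1d, which a transcript cut just after the stem-loop would lack. The midpoint rule also places in CDS some peaks that end past the stem-loop, such as that of Hist1h4d.

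**Figure D2:**
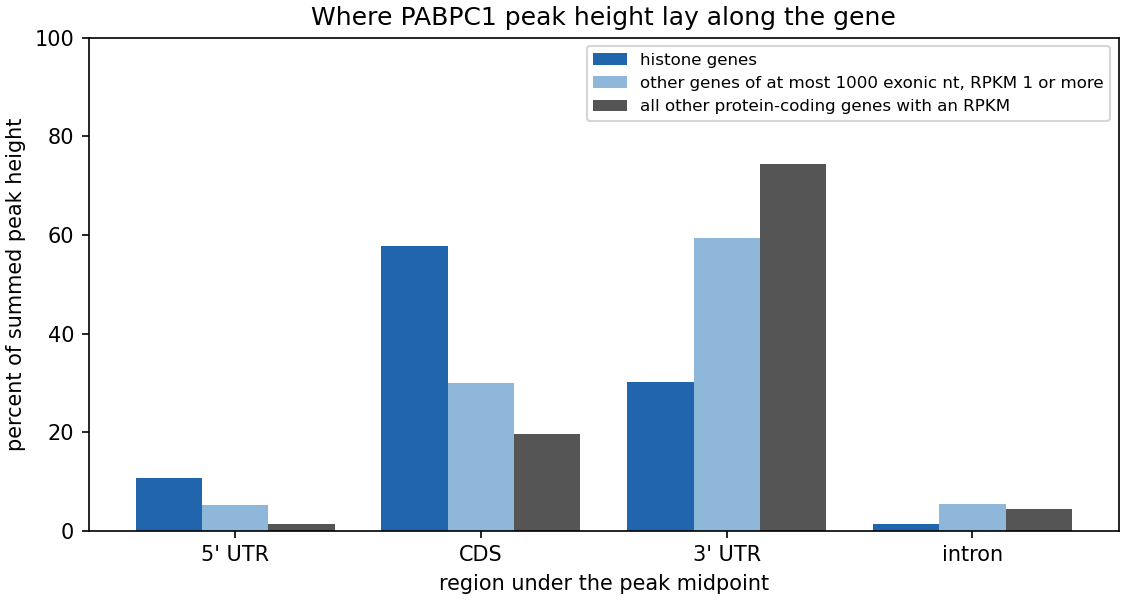
Bars give the percent of summed peak height by the region under the peak midpoint, for the histone genes, for other protein-coding genes of at most 1000 exonic nt and for all other protein-coding genes. CDS holds 57.9% in histone genes and 19.7% in all other genes, and 3′ UTRs hold 30.2% and 74.4%.

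Within the coding sequence the peaks gathered at its ends. A peak covered the start codon in 37 of 54 members at RPKM 1 or more (68.5%, interval 54.4 to 80.5), beside 11.2% of all protein-coding genes at that level. Among genes of at most 1000 exonic nt the counts were 27 of 41 members (65.9%, interval 49.4 to 79.9) beside 28.5%. A peak covered the stop codon in 38 of 54 members (70.4%, interval 56.4 to 82.0), beside 49.9%, and in 27 of 41 short members, beside 60.2%. Peaks over the start codon were therefore more common in members than in the background of short genes, while the share over the stop codon was near that of short genes. Among the tall examples, Hist1h2ab had a 175-tag peak over its start codon (chromosome 13, 23751078 to 23751177, plus strand) and a 65-tag peak at its 3′ end. Hist2h3b had 134 tags at the start and 49 at the end, Hist1h3c 103 and 31, and Hist2h2ac 118 and 27. Other members had the taller peak at the end, such as Hist1h1d with 11 and 91 tags and Hist1h2ac with 10 and 66. Over all members the height summed to 1759 tags over start codons and 1761 over stop codons.

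The middle of the coding sequence carried few peaks, and it also carried little sequence that belongs to a single gene. With the CDS divided into 10 equal bins, the middle of the bin was under a peak in 36 of 54 members in bin 1, in 4 in bin 5 and in 33 in bin 10. Histone genes are near-identical copies, and a read of shared sequence cannot be assigned to a gene; the sources used here do not say how such reads were handled. Of 30 nt windows in member CDS, 33.8% occurred in no other gene's transcript, against 94.7% in 5′ UTRs and 93.2% in 3′ UTRs. The share of unique windows was 64.8% in bin 1, 20.4% in bin 5 and 59.0% in bin 10. CDS windows under peaks were unique in 79.3% of 5811 cases and those outside peaks in 19.7% of 18687. With windows of 50 nt the shares were 92.5% and 26.9%. The positions of the peaks and the unique sequence moved together along the CDS, and the part of the latter in the former was not tested.

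**Figure D3:**
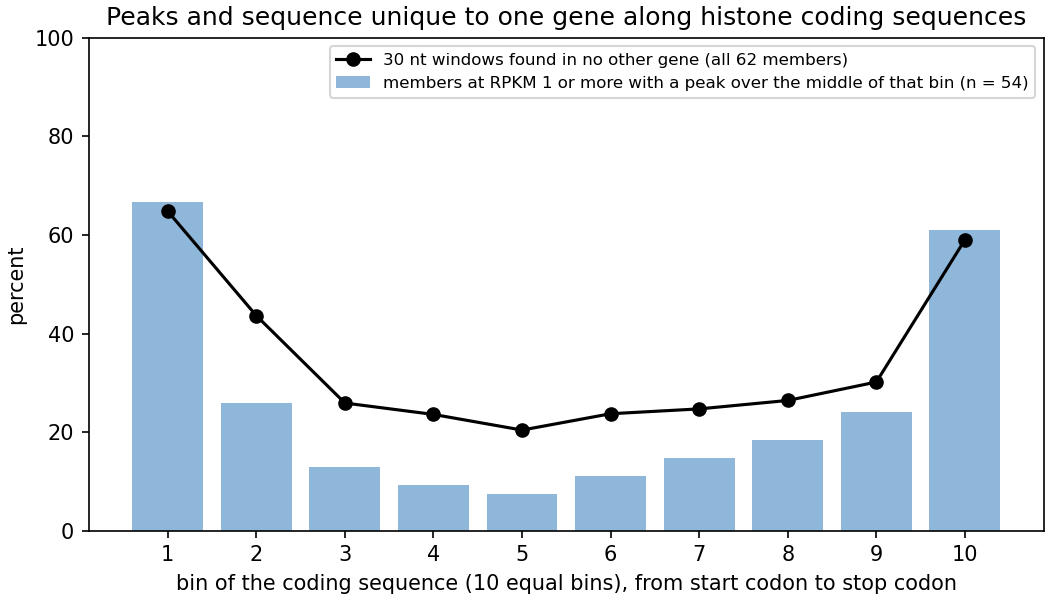
Bars give the percent of 54 histone genes at RPKM 1 or more with a peak over the middle of each of 10 equal bins of the coding sequence, and the line gives the percent of 30 nt windows found in no other gene. Both are high in bins 1 and 10 and low between them, down to 4 of 54 genes with a peak and 20.4% of unique windows in bin 5.

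Uniqueness also differed by class and by gene. H1 coding sequences were 83.8% unique, H4 35.2%, H2B 30.2%, H2A 19.5% and H3 14.6%. The 8 members without a peak had a median of 1.65% unique CDS windows, against 25.2% in the 54 with a peak. Of 7 members with less than 5% unique, 1 held a peak, the H4 gene Hist1h4n with 58 tags. Of 12 members above 65%, 11 held one. The exception among those was Hist1h1t, whose CDS was 100% unique at RPKM 0.780. For near-identical genes both the RPKM and the height are uncertain for the same reason.

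At the 3′ end many peaks stopped just after the stem-loop. Of the 38 members with the consensus, 32 held a peak and 25 held a peak over the stem-loop. All 25 of those peaks reached past its last base. In 15 genes the peak ended 1 to 3 nt after it: at 3 nt in 11, at 2 nt in 3 and at 1 nt in 1. In the sequences of Hist1h2ab, Hist1h4d, Hist2h4 and Hist2h2ac above, this is the last of the first 3 lower-case bases after the capitals. The other 10 peaks ended 24 to 27 nt after the stem-loop in 7 genes and 75, 135 and 171 nt after it in Hist1h1c, Hist1h2ae and Hist1h4i, and none ended in between. These groups of distances were named after the values were seen.

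The 15 genes came from every class: the H1 genes Hist1h1d and Hist1h1e, the H2A genes Hist1h2ab, Hist1h2ac, Hist1h2ad, Hist1h2ag and Hist2h2ac, the H2B gene Hist1h2be, the H3 gene Hist1h3b, and the H4 genes Hist1h4c, Hist1h4d, Hist1h4f, Hist1h4h, Hist2h4 and Hist4h4. Their peaks had 12 to 118 tags with a median of 38. The plus strand held 6 of these genes and the minus strand 9, and the end at 3 nt was found on both strands (5 and 6 genes). The annotated transcripts of these 15 genes went on for 11 to 4884 nt after the stem-loop, with a median of 454, and 0 of the 15 peaks ended within 5 nt of the annotated end. Over all members at RPKM 1 or more, 2 of 54 had a peak ending within 5 nt of the annotated transcript end (Hist1h4b and Hist3h2ba), beside 41.8% of the 10194 other protein-coding genes at that level.

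Hist4h4 shows the pattern on a long annotated transcript. Its single peak of 28 tags ended 2 nt past the stem-loop while the annotated 3′ UTR has 2515 nt. The 7 genes whose peaks ended at 24 to 27 nt were Hist1h2bg, Hist1h3a, Hist1h3d, Hist1h3g, Hist1h4b, Hist1h4j and Hist3h2a, with 11 to 38 tags and a median of 21. Of the forms with 1 mismatch, that of Hist1h3c lay under a peak of 31 tags ending 3 nt after it and that of Hist1h2bk under a peak of 72 tags ending 5 nt after it. The last peaks of Hist1h3e and Hist1h3f ended 16 and 17 nt before the last base of theirs.

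Where the annotation stops early, peaks ran past it. In 2 members the annotated transcript ends inside the consensus: Hist1h1a carries 15 of its bases, with a peak ending 25 nt past where the stem-loop would end, and Hist2h3b carries 7, with a peak ending 3 nt past that point. Of the 13 members with at most 2 nt of annotated 3′ UTR, 7 had a peak reaching 17 to 138 nt past the annotated end, with a median of 29 nt. At the other end 19 peaks began 1 to 53 nt before the annotated start.

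**Figure D4:**
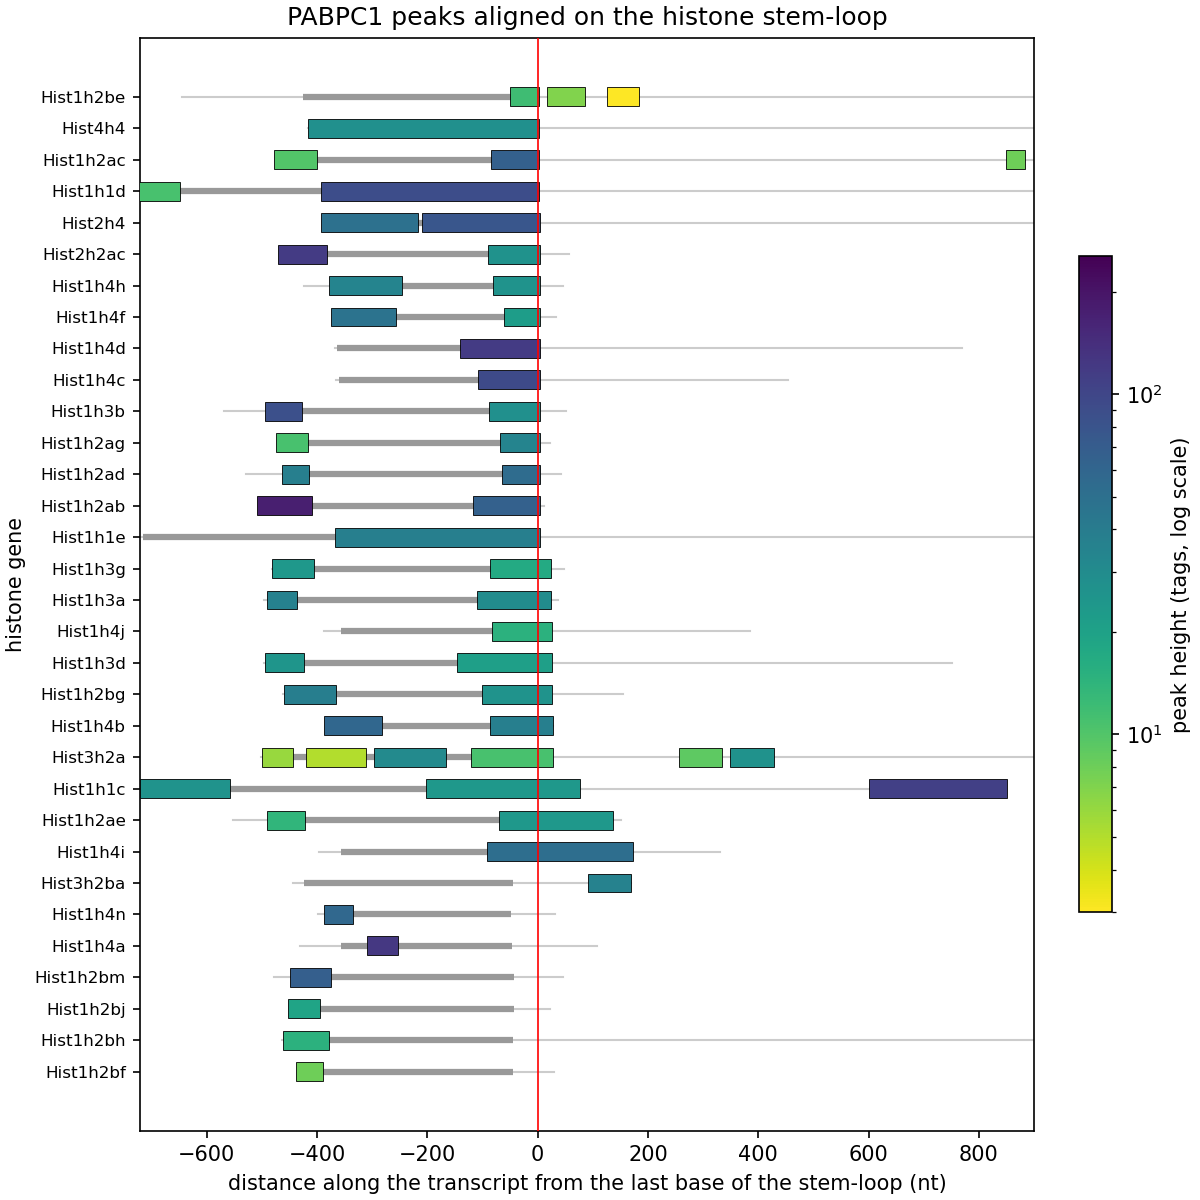
Each row is a member with a stem-loop and a peak; the x axis is the distance along the transcript from the last base of the stem-loop (red line), thin lines are the annotated transcript, thick lines the coding sequence and boxes the peaks, coloured by height in tags on a log scale (transcripts are clipped at the panel edges). The peaks of the upper 15 rows end 1 to 3 nt past the line, and 7 peaks in 5 genes lie wholly beyond it.

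Little of the height lay beyond the stem-loop. In the genes with a stem-loop, 1039 of 2404 tags of height (43.2%) were in peaks over it, 1162 in 27 peaks before it and 199 in 7 peaks wholly after it. These 7 peaks lay in 5 genes: Hist1h1c, Hist1h2ac, Hist1h2be, Hist3h2a and Hist3h2ba. A poly(A) signal, AATAAA or ATTAAA on the sense strand, lay after the stem-loop in 15 of the 38 members with a stem-loop. These 5 genes were all among the 15. Both a signal and a peak there need an annotated transcript that runs past the stem-loop, so annotated length partly sets this overlap. The peaks of Hist3h2a cannot be told apart from those of Trim17. Hist1h2be (with Gm11398 and Hist1h1e) and Hist1h2ac also overlap another gene on the same strand.

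A few members had peaks at an annotated 3′ end that follows a poly(A) signal, and whether these ends carry a tail was not measured. The like share of other genes with such a signal was not counted. With or without one, 41.8% of other protein-coding genes at RPKM 1 or more had a peak ending within 5 nt of the annotated end. Of 14 members with a poly(A) signal within 40 nt of the annotated end, 4 had a peak ending within 30 nt of that end. Hist1h1c, an H1 gene (chromosome 13, 23738808 to 23740367, plus strand), had its tallest peak there with 109 tags, while its peak over the stem-loop had 24. Hist2h2be, an H2B gene (chromosome 3, 96221119 to 96223738, plus strand), had 60 tags there and 41 in a second peak of its 3′ UTR. Hist3h2ba had a single peak of 36 tags there, and Hist1h2ae one of 24 that also covered the stem-loop. The last 30 bases of these transcripts are given with the poly(A) signal in capitals because the peaks end in or near them; that of Hist1h2ae stopped 16 nt short of the end.
Hist1h1c: ttctAATAAAaagcgtttagttttcattca
Hist2h2be: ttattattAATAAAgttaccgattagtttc
Hist3h2ba: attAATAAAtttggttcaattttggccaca
Hist1h2ae: ccAATAAAtgggtcaatttttttcagattc

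Hist1h2bc, the member with the greatest height, had most of it far from the stop codon. Its longest coding transcript is spliced to a distant last exon and holds no stem-loop match. The peak of 245 tags lay in the 3′ UTR of that last exon (chromosome 13, 23692187 to 23692488, plus strand), beside 12 tags over the start codon. A peak of 50 tags with its midpoint in the intron began before the stop codon and ended 52 nt past it. The peak of 245 tags was the tallest of the family after that of Hist2h2bb, whose tags may include those of the overlapping Gm42743. That peak had 254 tags over 572 nt and covered the whole annotated gene (chromosome 3, 96269699 to 96270270, plus strand).

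Deletion sites were few. Such a site is a base skipped by reverse transcriptase in a share of the tags, which marks the crosslink more closely than a peak. There were 9 sites in 5 of 62 members, beside 29.6% of all listed protein-coding genes with a site, and they carried 73 deletions and made up 0.0756% of the list. At RPKM 1 or more 5 of 54 members held a site (9.26%, interval 3.08 to 20.3), beside 38.2% of all protein-coding genes, and at most 1000 exonic nt 2 of 41 did (4.88%), beside 35.9%. By level the counts were 0 of 8 beside 1.96% under RPKM 1, 1 of 20 beside 8.16% at RPKM 1 to 5, 2 of 24 beside 26.7% at 5 to 20, and 2 of 9 beside 49.7% at 20 to 100. Peak height was lower in members, and the shares by height of the tallest peak are as follows. Among genes whose tallest peak had 20 to 100 tags, 4 of 37 members held a site (10.8%, interval 3.03 to 25.4), beside 17.8%, and the background lay within the members' interval. Above 100 tags 1 of 9 did (11.1%, interval 0.281 to 48.2), beside 66.8%, and the background lay above the interval. That group has no upper limit, so its heights are not alike. No member peak exceeded 254 tags, while other genes went higher, such as Cenpa with 1991. The part of peak height in the low count was not tested. Only sites inside annotated spans were counted in these shares, and sites just outside them are given below. With spans extended by 50 nt on both sides, a setting chosen after seeing the data, 8 members held a site instead of 5. The added members, all at RPKM 1 or more, were Hist2h2bb, Hist1h2an and Hist1h4k, with tallest peaks of 254, 71 and 38 tags. The members' shares at RPKM 1 or more and in each height group would thus be higher. Other genes were not recounted in this way.

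The sites are printed with their surroundings because these show how closely the deleted bases can be placed. Capitals mark the deleted bases as listed. Except in Hist2h4, the same base or bases repeat beside the capitals, so which of the repeated bases was skipped cannot be told. No poly(A) signal, ATATAA or AAAAAA lay in any of the 5 windows.
Hist1h1a: gaggcttcttctATAAataacccaacgg
Hist1h2bc: gcaaaagaatgcTTttaagtgtttgt
Hist1h2ac: ggccaaggggaaAtaagcaacagaa
Hist1h4c: aaaaggccctttTcagggccaccca
Hist2h4: tatggatgtggtGtacgctctcaag

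In the H1 gene Hist1h1a (RPKM 27.7, a peak of 48 tags) 4 adjoining bases were deleted at chromosome 13, 23764378 to 23764381, plus strand, 20 to 23 nt after the stop codon. Each carried 8 deletions in 30 or 31 tags, 25.8% or 26.7%. Those of Hist1h2bc lay in the peak of the distant exon, at 23692420 with 11 deletions in 44 tags (25.0%, interval 13.2 to 40.3) and at 23692421 with 6 in 43 (14.0%). In the H2A gene Hist1h2ac (RPKM 1.12) a base of a run of A was deleted in 9 of 56 tags (16.1%, interval 7.62 to 28.3). It was listed just before the stop codon, at chromosome 13, 23683528, minus strand. The site of the H4 gene Hist1h4c (RPKM 7.90) lay in the stem-loop itself (chromosome 13, 23698096, minus strand), with 9 deletions in 68 tags (13.2%, interval 6.23 to 23.6). It was listed at base 9 of the stem-loop, in a run of T that begins in the stem and goes on into the loop. In the H4 gene Hist2h4 a coding G at chromosome 3, 96263041, minus strand, was deleted in 6 of 77 tags (7.79%). The median over all sites of the list was 12.8%, which lay inside the interval of each of these sites except that of Hist1h2bc at 23692420.

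Another 5 sites lay within 50 nt of a member's annotated span, in genes whose annotation lacks UTRs. Hist2h2bb had 9 deletions in 71 tags 3 nt before its span, 6 in 80 at 17 nt before it and 8 in 21 (38.1%) at 44 nt after it. Hist1h2an had 10 in 133 tags 22 nt after its span, and Hist1h4k 6 in 33 at 37 nt after it. The Hist1h2an site lay inside that gene's peak, whose score of 71 is below the 133 tags, so the score understates the tags there.

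A list of replication-independent histone genes gave larger values, and whether all their mRNAs carry a tail was not measured. Of 11 such genes 9 were listed, and all 9 held a peak, with a median RPKM of 78.5 (22.0 to 393) and a median height of 573 tags (27 to 2362). A deletion site lay in 6 of the 9, beside 49.7% of protein-coding genes at RPKM 20 to 100 and 78.3% above. The most abundant were H2afz, a variant H2A, with RPKM 393, 223 tags and 0 deletion sites, the centromeric H3 gene Cenpa with 201, 2362 tags and 7 sites, and H3f3b, which encodes H3.3, with 146, 573 tags and 4 sites. Their median log2 ratio of height to level was 2.89, beside 2.74 for the members at RPKM 1 or more, whose levels were lower. At RPKM 20 to 100 the members' median was 1.26. The replication-independent genes in that band stood at 0.29 (H3f3a), 2.89 (H1f0), 3.27 (H2afv), 3.33 (H2afj) and 4.91 (H2afy). The part of mRNA level in the difference in height was not tested. The tallest peak lay in the 3′ UTR for H2afz, Cenpa and H3f3b.

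Genes for histone mRNA processing and decay were expressed. Of 19 in the list, 18 were listed at RPKM 1.39 to 250 and all 18 held a peak, with a median height of 433 tags. The most abundant were Srrt (RPKM 250, 928 tags), Ncbp1 of the cap-binding complex (169, 1031 tags) and the cleavage factor gene Cstf2 (149, 1246 tags). Slbp itself stood at RPKM 118 with 258 tags and 0 deletion sites. Of the markers of the labelled cell type, 7 of 7 erythroleukemia genes stood at RPKM 40.3 to 428. Of 6 fibroblast markers, for the other line named in the growth protocol, 3 were listed, Thy1 at 65.3, Pdgfrb at 2.60 and Col1a1 at 0.873.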

How the data were processed

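The histone genes and the gene lists were chosen with earlier results of these data known. Per the labels, both assays were made in MEL cells, and each file serves all replicates of its assay. Tools listed per the submitters' processing notes, without roles, are HTSeq 0.6.0, TopHat2 2.0.12, Novoalign 3.02.02 and cutadapt 1.4.2, with build mm10. Thresholds for peaks and deletions and the handling of shared reads are not given in the sources used here. Whole reads were recovered from the deposited RPKM within 0.01 for 100% of 3560 genes under 200 reads, at 35251200 reads or so in 1 pooled count. The score the authors deposited for each peak was read as tags, since 99.8% of 10137 deletion sites inside a peak had no more tags than that score. This check cannot tell tags at the summit from tags over the whole peak. Deletion sites carry the authors' deposited count of tags with a deletion and of tags covering the base.

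Genes were placed on GENCODE M21 (54 members by identifier, 8 by symbol), 1-based, with the longest coding transcript for distances and sequences. Peaks were assigned by midpoint and strand. Named were members with a deletion site, the 10 with the largest summed height, the 5 most abundant without a peak, the 3 largest and 3 smallest ratios at RPKM 10 or more, and the 3 most abundant of each list; other names came from the stem-loop and 3′ end groups and were chosen after their values were seen. The placing and stem-loop code was tested on simulated data. Python 3.11.15, pandas 2.3.3 and SciPy 1.17.1 were used. Intervals (95%, exact) cover counting error only, and PCR tags are not independent molecules.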

Additional observations from a re-analysis of the deposited data

How the results depend on the processing

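Members with a peak numbered 54 with the midpoint rule, 39 to 55 under other placements and 52 for peaks of at least 9 tags, but 13 for peaks of at least 74 tags, beside 43.1% of all listed protein-coding genes. The summed height of 4060 tags became 2454 when peaks had to lie wholly inside the annotated span, since many run past it. The 9 deletion sites became 14 in 8 members with spans extended by 50 nt on both sides, a setting chosen after seeing the data. The median log2 ratio stayed between 2.47 and 2.96, the 3′ UTR share of height at 30.2% or, for peaks of at least 9 tags, 30.06%, but was 37.2% in members with at least 60 nt of 3′ UTR (added after seeing the data), and matches to the stem-loop rose from 38 to 44 with 1 mismatch, when 17 of 27 peaks over it ended 1 to 5 nt after it. No paired analysis was possible because the lists and the RPKM are pooled over replicates, and for the same reason no replicate could be left out. No genome sequence was used, so stem-loops past an annotated transcript end were not searched. Of the members, 22 overlap another gene, 20 of them one on the opposite strand and 6 one on the same strand. The sources used here do not say whether the RPKM used strand.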
